A study of Mus musculus with 6 samples.

Results

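The dual specificity phosphatases Dusp4, Dusp5 and Dusp6, the Sprouty proteins Spry1, Spry2 and Spry4, the Sprouty-related proteins Spred1 and Spred2, and the PEA3 transcription factors Etv4 and Etv5 were followed in hematopoietic stem cells of Prmt5 fl/fl and Prmt5 KO mice. These 10 genes were chosen by symbol from 24110 in the deposited table, at a time when the differences between the genotypes were already known. The differences between the genotypes are therefore given for these genes as a description. How many of them passed a threshold is stated beside the share of all genes, without their p-values, and supports nothing. RNA came from bone marrow cells sorted for the stem cell surface phenotype (no lineage markers, Sca-1 and CD150 present, CD48 absent) from C57BL/6 mice. The Prmt5 fl/fl mice carried the floxed gene intact and the Prmt5 KO mice carried it deleted, and both were taken 7 days after induction. Each genotype had 3 libraries, each from a pool of 2 mice, with littermates of matched sex across genotypes. The agent of induction, the driver of the deletion, the treatment of the fl/fl mice and the age of the mice have no statement in the labels used here.

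ERK, the last kinase of the RAS, RAF and MEK cascade, carries signals from growth factor and cytokine receptors to the nucleus. It also switches on its own brakes: the 3 phosphatases remove the activating phosphates from ERK, and Sprouty and Spred proteins act further up, between the receptor and RAF. Etv4 and Etv5 are ETS family activators whose transcripts rise with ERK signaling, in part because ERK relieves repression by the protein capicua. In stem cells of the blood the cascade lies downstream of receptors such as KIT. Transcript levels report neither the amount of these proteins nor ERK phosphorylation.

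The targeted gene was checked first: Prmt5 stood at 6010 to 6076 scaled counts in the fl/fl libraries and 897 to 1056 in the KO libraries. The lower level in every KO library matched the labels, and some Prmt5 transcript was still counted in KO. A scaled count is a read count brought to 1 common total per library, and the libraries held 37834096 to 44704636 reads in genes, all 3 KO totals being below all 3 fl/fl totals. Genes of the sort were detected in every library: Slamf1 (CD150) at 2731 to 4489 scaled counts and Ly6a (Sca-1) at 4969 to 9401. Cd48, whose protein was sorted out, stood at 446 to 757. Kit, which is not in the phenotype given above, stood at 19323 to 56475. KO replicate 3 stood apart in genes of maturing neutrophils. The 10 markers of neutrophils and their precursors summed to 29897 to 253980 scaled counts in fl/fl and 77191 to 985900 in KO, with the highest sum in KO replicate 3 and the lowest in fl/fl replicate 3. The 12 megakaryocyte and platelet markers summed to 101720 to 123350 in fl/fl and 52025 to 76137 in KO, and the 12 red cell precursor markers to 63085 to 96585 and 53434 to 60183, with 11 of these in the table and the 4 globin genes at 0 in every library. The groups overlapped in the sums of the 10 monocyte and macrophage, 10 B cell, 10 T and NK cell, 8 mast cell and basophil, 10 stromal and endothelial, and 15 stem cell markers. The part of these cells in the differences below was not tested, and in bulk samples fewer cells of a type cannot be told apart from less RNA per cell.

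As a description, the sequence around the start of these genes was read for sites of factors that respond to ERK and to other signals. Of the 10 genes 6 were higher in every KO library than in any fl/fl library. Of all genes tested, 8.3% were higher and 19.9% lower in this way. RefSeq windows on GRCm38.p6, from 250 bases before the transcript start to 50 after it, were at hand for 7 of the 10 genes, with 8 windows in all since Etv5 has 2. The capicua octamer, searched on both strands as TGAATGAA, TGAATGGA, TCAATGAA and TCAATGGA, was found in the windows of Dusp6 and Spry2, and 3.84% of all 32851 windows held it. The PEA3 form of the ETS site, AGGAAGT, was found in Dusp5, Spred2 and the second Etv5 window, and 9.35% of all windows held it. The AP-1 site TGANTCA (7.81% of all windows), the cyclic AMP response element TGACGTCA (1.79%), the ETS form CCGGAAG (8.86%) and the E-box CACGTG (7.15%) were found in 0 of the 8 windows. None of these 6 motifs overlapped another in the 8 windows. Dusp6 held the octamer at 2 places, starting 24 bases before the transcript start and again at base 2 counted from that start, both as TCCATTGA, the opposite strand of TCAATGGA. The 250 bases before the start of Dusp6 (chr10:99262981-99263230, plus strand) are shown because they hold the first of these copies, and capitals mark the match, as they do in the shorter stretches from the other 3 genes.
Dusp6: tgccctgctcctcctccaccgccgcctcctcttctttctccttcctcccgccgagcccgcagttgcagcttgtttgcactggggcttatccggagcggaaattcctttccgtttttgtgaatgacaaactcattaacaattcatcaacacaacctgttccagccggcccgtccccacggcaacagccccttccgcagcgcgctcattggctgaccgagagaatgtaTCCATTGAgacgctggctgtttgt
Spry2 (chr14:105896856-105896883, minus strand): cggcctcttgTTCATTGAgaaaaaaaaa
Dusp5 (chr19:53528942-53528968, plus strand): atcgcccgccACTTCCTctttctcgct
Spred2 (chr11:19924399-19924425, plus strand): cttccgccctACTTCCTcctcctgttg
The octamer of Spry2 starts 54 bases before its transcript start, and the ETS matches of Dusp5 and Spred2 start 193 and 33 bases before theirs, by the RefSeq models. By GENCODE M21 Spred2 starts at 19924375, so the stretch shown for it lies inside the gene by that model. The Etv5 match starts at base 2 counted from the RefSeq start, so it lies after that start. By GENCODE M21 the second Etv5 window also lies inside the gene. A match is a run of letters in a window and was not tested as a binding site. Matches were present in genes whose groups were apart (Dusp5, Dusp6, Etv5) and in genes whose groups overlapped (Spry2, Spred2). No window was at hand for Dusp4, Spry4 and Etv4, so these genes, each with its groups apart, were not searched.

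The genes differed widely in level before any comparison of genotypes. Per kilobase of deposited gene length, Dusp6 had the highest mean in fl/fl at 946 ± 105 scaled counts per kilobase (SD, n = 3), followed by Etv5 at 751 ± 215, Spred1 at 591 ± 230 and Spry1 at 509 ± 37.1. Dusp5, Spred2 and Dusp4 came next at 299.6 ± 24.8, 252 ± 84.7 and 176 ± 82.7. Spry2, Spry4 and Etv4 were the lowest, at 22.8 ± 3.31, 10.9 ± 3.75 and 9.72 ± 7.75. Only 3 steps of this order had fl/fl libraries that did not overlap between neighbours: Spry1 over Dusp5, Dusp4 over Spry2, and Spry2 over Spry4. In KO the order was Dusp6, Etv5, Spred1, Dusp5, Dusp4, Spry1, Spred2, Spry4, Etv4 and Spry2, so Spry2 was the lowest of the 10. The KO libraries of Dusp6 and Etv5 overlapped at 1666 ± 126 and 1646 ± 12.5 scaled counts per kilobase. The deposited length of Dusp5, 1155 bases, lies close to its coding length of 1152 in GENCODE M21, against 2473 bases of exons, so its level per kilobase is not on the same footing as that of genes with a full-length model.

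**Figure D1:**
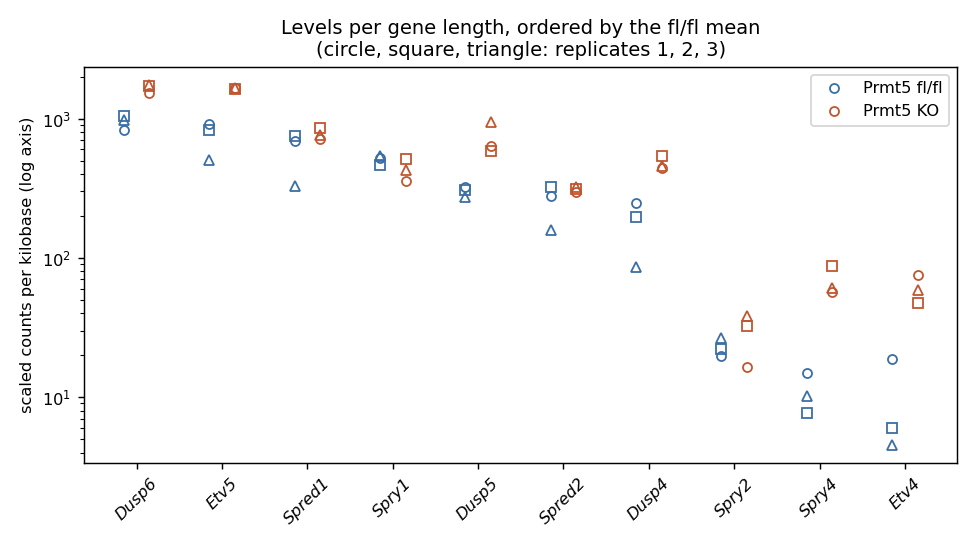
Scaled counts per kilobase of deposited gene length on a log axis, for each of the 10 genes in the 3 fl/fl (blue) and 3 KO (orange) libraries, with a symbol for each replicate number. Spry2, Spry4 and Etv4 lie below 100 in every library, and the other 7 genes above it except Dusp4 in fl/fl replicate 3 at 86.0.

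Dusp6, the cytoplasmic phosphatase specific for ERK, lies on chromosome 10 (99263231 to 99267489, plus strand, 4 merged exons; GRCm38/mm10 with GENCODE M21, as for all positions below). It stood at 2322, 2897 and 2719.6 scaled counts in fl/fl (replicates 1 to 3) against 4255, 4821 and 4906 in KO (values are in this order throughout). All KO libraries were above all fl/fl libraries, and the spread within each genotype was small. The means were 2646 ± 294 and 4661 ± 354 (SD, n = 3 per genotype), or 0.82 ± 0.14 (SE) as a log2 fold change. Fold changes here and below were taken after adding 1 to each value, on a log2(value + 1) scale. In the pairs of 1 fl/fl and 1 KO library that share a title prefix, the log2 differences were 0.87, 0.73 and 0.85, the narrowest range among the 10 genes. The stretch shown above places the first octamer copy upstream of this gene, while the second copy lies just after the transcript start.

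Dusp5, a nuclear phosphatase for ERK, lies on chromosome 19 (53529109 to 53542431, plus strand, 4 merged exons). It stood at 370.5, 353 and 315 scaled counts in fl/fl (replicates 1 to 3) against 738, 676 and 1096 in KO. The groups were apart, with the highest value in KO replicate 3. The means were 346 ± 28.6 and 837 ± 227 (SD, n = 3 per genotype), or 1.24 ± 0.23 (SE) as a log2 fold change. Without KO replicate 3, the library with the most neutrophil transcripts, the log2 fold change was 1.03. Exons of the unnamed antisense gene AC137853.2 overlap those of Dusp5 over 547 bases, and reads from both strands cannot be told apart with this library kit.

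Dusp4, an inducible nuclear phosphatase of ERK and other MAP kinases, lies on chromosome 8 (34807297 to 34819894, plus strand, 4 merged exons). It stood at 602, 474 and 209 scaled counts in fl/fl (replicates 1 to 3) against 1073, 1317 and 1099.8 in KO. The groups were apart, and fl/fl replicate 3 was far below the other fl/fl libraries. The means were 428 ± 201 and 1163 ± 134 (SD, n = 3 per genotype), or 1.57 ± 0.38 (SE) as a log2 fold change. Without fl/fl replicate 3 the log2 fold change was 1.11, and without fl/fl replicate 1 it was 1.88.

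Among the Sprouty genes, Spry4 was the one with groups apart. Spry4, which inhibits RAS activation by growth factor receptors, lies on chromosome 18 (38586247 to 38601415, minus strand, 2 merged exons). It stood at 68.8, 35 and 46.6 scaled counts in fl/fl (replicates 1 to 3) against 261, 399 and 279 in KO. Even the lowest KO library was well above the highest fl/fl library. The means were 50.1 ± 17.2 and 313 ± 74.9 (SD, n = 3 per genotype), or 2.65 ± 0.34 (SE) as a log2 fold change. These values rest on 35 to 68 reads per fl/fl library and 221 to 373 per KO library.

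Spry1, a Sprouty gene with a high level in these cells, lies on chromosome 3 (37639947 to 37644598, plus strand, 2 merged exons). It stood at 1294, 1164 and 1343 scaled counts in fl/fl (replicates 1 to 3) against 887, 1267 and 1070.2 in KO. The groups overlapped, and Spry1 alone among the 10 genes had a fold change below 0, a log2 of -0.25 ± 0.18 (SE). The pairs gave log2 differences of -0.54, 0.12 and -0.33. Exons of Gm42922 on the other strand overlap those of Spry1 over 710 bases.

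Spry2, the remaining Sprouty gene, lies on chromosome 14 (105891947 to 105896819, minus strand, 2 merged exons). It stood at 41.5, 46 and 55.1 scaled counts in fl/fl (replicates 1 to 3) against 34.3, 67.4 and 79.1 in KO. KO replicate 1 was the lowest of all 6 libraries and KO replicate 3 the highest, so the groups overlapped. The log2 fold change was 0.26 ± 0.41 (SE), on 29 to 67 reads per library. It was 0.62 without KO replicate 1 and 0.027 without KO replicate 3.

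Spred1 and Spred2, which bind neurofibromin and bring it to the membrane to inactivate RAS, shared 1 pattern. Spred1 (chromosome 2, 117121374 to 117182279, plus strand, 7 merged exons) stood at 4929, 5319 and 2318 scaled counts in fl/fl (replicates 1 to 3) against 5048, 6112 and 5372 in KO. Spred2 (chromosome 11, 19924375 to 20024026, plus strand, 8 merged exons) stood at 802, 920.0 and 452 in fl/fl against 860.2, 897 and 932 in KO. In both genes fl/fl replicate 3 was the single low library, and the other 5 overlapped. The log2 fold changes were 0.48 ± 0.31 and 0.37 ± 0.27 (SE). Both shrank to 0.10 and 0.061 once fl/fl replicate 3 was left out. Of the 10 genes these 2 were closest to each other in profile, with a root mean square difference of 0.12 between their centred log2 values over the 6 libraries.

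Etv5, the PEA3 factor with the higher level, lies on chromosome 16 (22381309 to 22439719, minus strand, 15 merged exons). It stood at 3488, 3180.0 and 1939 scaled counts in fl/fl (replicates 1 to 3) against 6335, 6239.7 and 6299 in KO. The KO libraries were nearly equal, with a coefficient of variation of 0.761%, while fl/fl replicate 3 was below the other fl/fl libraries. The means were 2869 ± 820.0 and 6291 ± 47.9 (SD, n = 3 per genotype), or 1.18 ± 0.22 (SE) as a log2 fold change. Without fl/fl replicate 3 the log2 fold change was 0.92.

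Etv4, a close relative of Etv5, lies on chromosome 11 (101769742 to 101785371, minus strand, 14 merged exons) and was the lowest of the 10 genes in fl/fl. It stood at 43.5, 14 and 10.6 scaled counts in fl/fl (replicates 1 to 3) against 175, 111 and 137 in KO. The groups were apart, and the fl/fl libraries varied by a coefficient of variation of 79.8%. The means were 22.7 ± 18.1 and 141 ± 32.03 (SD, n = 3 per genotype), or 2.82 ± 0.55 (SE) as a log2 fold change. The fl/fl values rest on 43, 14 and 10 reads, so counting error is large there, and the fold change ran from 2.43 to 3.40 when each library was left out in turn. Its nearest profile among the 10 genes was that of Spry4, at a root mean square difference of 0.55.

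**Figure D2:**
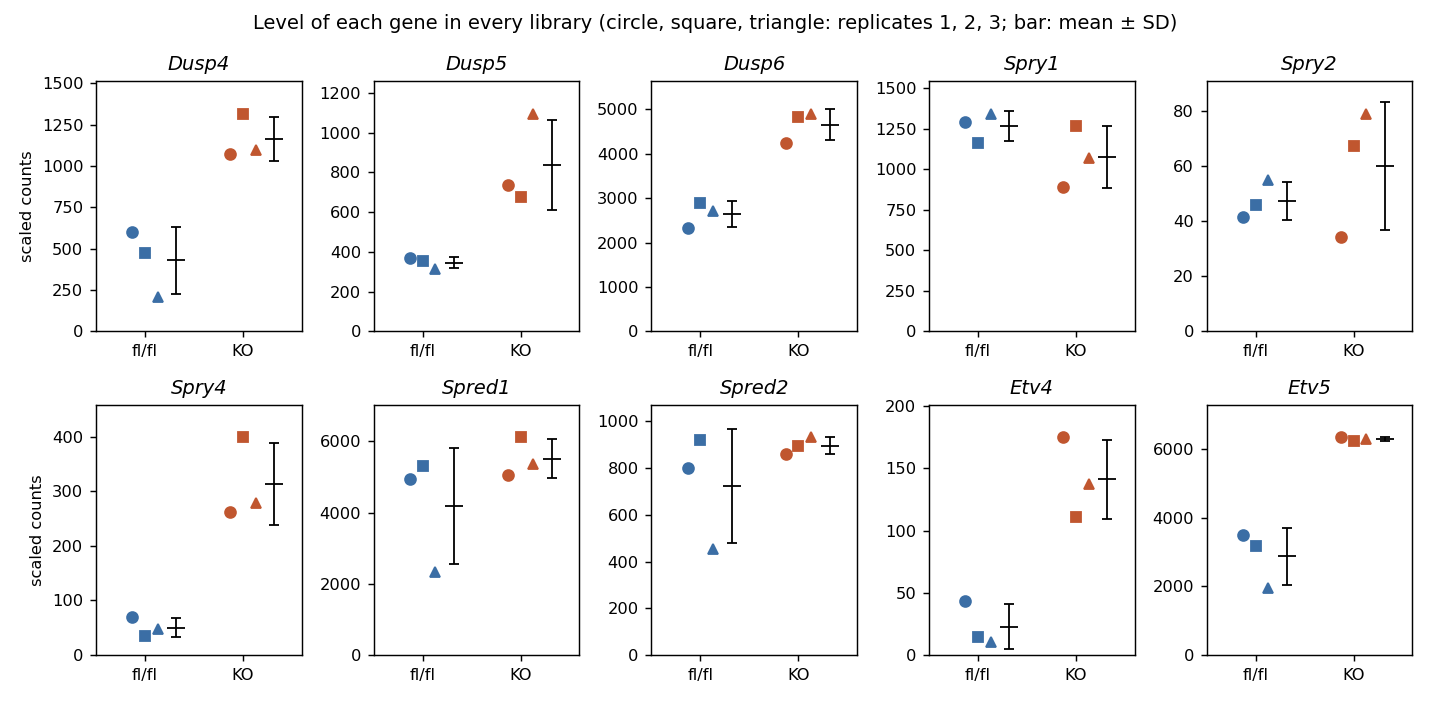
Scaled counts of each gene in every library, with 1 panel per gene, a linear axis from 0, symbols for replicates 1 to 3 and black bars for the mean and SD of each genotype. In Dusp4, Dusp5, Dusp6, Spry4, Etv4 and Etv5 all 3 KO points lie above all 3 fl/fl points, while in Spry1, Spry2, Spred1 and Spred2 they overlap.

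Across the 10 genes, 6 had the KO libraries above the fl/fl libraries, 0 had them below and 4 overlapped. Of all 14113 genes tested, 8.3% had KO above and 19.9% had KO below. All 10 genes passed the filter of a mean of 10 scaled counts. The median log2 fold change was 1.00 over the 10 genes and -0.048 over all genes tested. In the limma fit over all genes, 1 of the 10, Spry4, was past the adjusted threshold of 0.05, against 0.276% of all genes in that direction, and 0 were past it in the other, against 0.453%. With edgeR on the recovered reads the count was again 1, Spry4 (0.241% of all genes higher and 0.184% lower). With DESeq2 on the same reads it was 6, those with groups apart (2.59% higher and 4.36% lower). Leaving out any single library except fl/fl replicate 3, the limma count was 0, while 6 of the 10 were higher at an unadjusted p below 0.05 in each of those fits, against 2.79% to 5.41% of all genes higher and 8.75% to 12.3% lower. Over all genes limma called 39 higher and 64 lower, and the balance moved with the scaling: 35 and 22 with median-of-ratios factors, 35 and 32 with TMM factors, and 38 and 26 with quantile normalization. Because these genes were proposed with this contrast known, nothing is read from these counts.

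**Figure D3:**
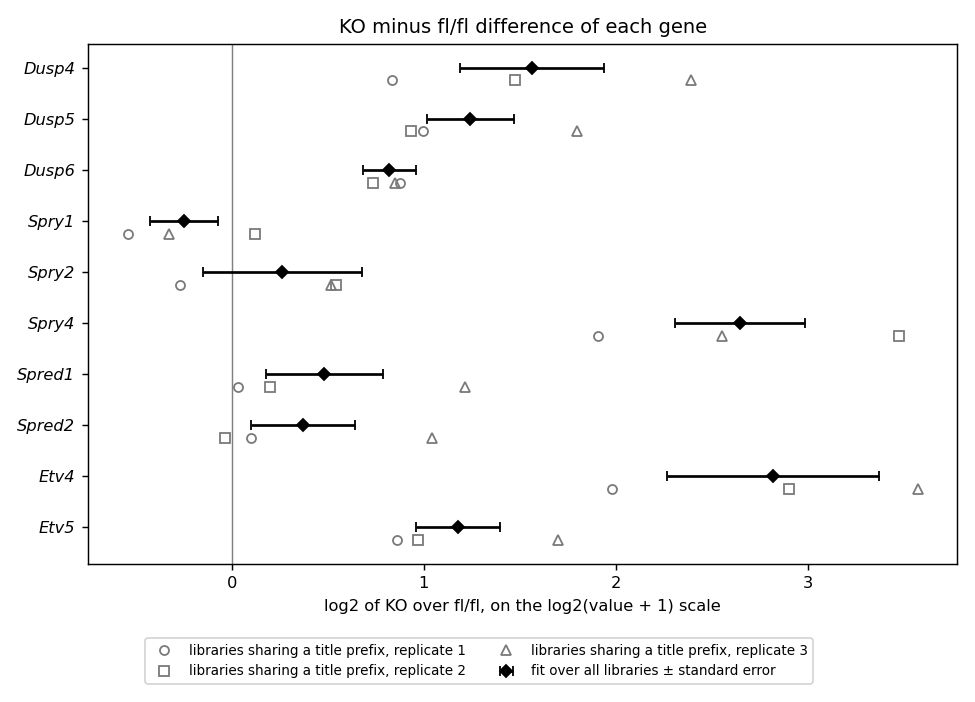
Log2 fold change of KO over fl/fl for each gene (diamonds with standard errors) and the log2 difference within each pair of libraries that shares a title prefix (open symbols). The pairs lie above 0 in all 3 cases for Dusp4, Dusp5, Dusp6, Spry4, Spred1, Etv4 and Etv5, and on both sides of 0 for Spry1, Spry2 and Spred2.

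The libraries did not contribute equally. In fl/fl replicate 3, Dusp4, Spred1, Etv4, Spred2 and Etv5 stood below the mean of the other fl/fl libraries by log2 differences of -1.35, -1.14, -1.16, -0.92 and -0.78. Dusp5, Dusp6, Spry1, Spry2 and Spry4 stood within -0.20 and 0.33 of that mean, and the median over all genes tested was 0.017. Low values in this library were not confined to the 10 genes. Of 14113 genes tested, 1848 (13.1%) lay at least 1 log2 unit below the mean of the other fl/fl libraries. So did 27 of the 127 pathway list genes described below (21.3%) and 3 of the 10 genes. For fl/fl replicates 1 and 2 the same held for 1.98% and 3.34% of all genes. Kit, the receptor for stem cell factor, was among the 27, at 19323 scaled counts against 43988 and 56475. The cause of the low values in this library, technical or not, was not tested. The part of this library in each difference is seen when it is left out: the log2 fold changes of Dusp5, Dusp6, Spry4 and Etv4 were then 1.18, 0.84, 2.62 and 2.43. Leaving it out, limma placed 5 of the 10 genes past the threshold (Dusp4, Dusp5, Dusp6, Spry4 and Etv5), against 0.857% of all genes higher and 1.82% lower. The sign of the fold change was the same in all 17 alternative settings for each of the 10 genes.

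Genes of the same pathway were read from 10 lists that held 139 further genes, of which 127 were tested. In all, 3 of the 127 rose and 0 fell in KO (limma, adjusted over all genes), against 0.276% and 0.453% of all genes. At an unadjusted p below 0.05 (limma) 15 were higher and 6 lower, against 4.58% and 13.6% of all genes. DESeq2 called 11 higher and 1 lower, against 2.59% and 4.36%. These shares of all genes also apply to the counts of each list below. The 3 genes that rose belonged to the lists of ERK-induced genes: Epha2, Ccnd1 and Egr1. The 10 lists were drawn up with earlier results of these data known, so the counts and the 3 genes add no independent evidence. With the replicate number as a block none of the 3 was past the threshold. The adjusted p (limma) was then 0.103 for Epha2 and 0.197 for Ccnd1 and Egr1.

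Epha2, an ephrin receptor whose transcript rises with ERK signaling and which is also a p53 target, lies on chromosome 4 (141301240 to 141329384, plus strand). It stood at 34.4, 35 and 28.6 scaled counts in fl/fl (replicates 1 to 3) against 717, 402 and 683 in KO. It rose by a log2 of 4.12 ± 0.30 (SE) (limma, adjusted p = 0.00564), and all KO libraries were far above all fl/fl libraries. Its adjusted p was 0.0728 without KO replicate 1, 0.0679 without KO replicate 3 and 0.00960 to 0.0310 without each of the others.

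Ccnd1, cyclin D1 of the G1 phase and a target of ERK signaling, lies on chromosome 7 (144929931 to 144939925, minus strand). It stood at 884, 790.0 and 952 scaled counts in fl/fl (replicates 1 to 3) against 1986, 1892 and 2399 in KO. It rose by a log2 of 1.25 ± 0.16 (SE) (limma, adjusted p = 0.0304). Leaving out any single library except fl/fl replicate 3 brought the adjusted p to between 0.0912 and 0.187. Exons of LTO1 on the other strand overlap those of Ccnd1 over 1100 bases.

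Of the 17 tested genes in the list of other ERK-induced genes, Epha2 and Ccnd1 rose and 0 fell, against 0.276% and 0.453% of all genes. Fold changes were above 0 in 14, with a median log2 of 0.39, against -0.048 over all genes tested. Lif, a cytokine of the interleukin 6 family, stood at 47.6, 31 and 18.0 scaled counts in fl/fl against 170, 73.8 and 136 in KO (limma, adjusted p = 0.105), with the groups apart. Phlda1, another gene used as a readout of ERK signaling, stood at 202, 133 and 110.1 in fl/fl against 217, 126 and 887 in KO, so a single library, KO replicate 3, was high. Fosl1, an AP-1 subunit, was high in the same library, at 330 against 28 to 73.3 in the other 5. Lif, Phlda1 and Fosl1 were chosen after their values were seen.

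Of 17 tested serum response and AP-1 immediate early genes, Egr1 rose and 0 fell, against 0.276% and 0.453% of all genes. Fold changes were above 0 in 16, with a median log2 of 0.66, against -0.048 over all genes tested. Among these 16, Jun, Fosb, Fosl2, Srf and Elk4 were higher in KO only in the pair of replicate 3. These genes were named after their values were seen. Egr1, a transcription factor induced by ERK through serum response elements, stood at 2086, 2427 and 2469.6 scaled counts in fl/fl against 6422, 4859 and 6889 in KO. Its log2 fold change was 1.37 ± 0.17 (SE) (limma, adjusted p = 0.0301). Leaving out fl/fl replicate 1 or 2 or KO replicate 1 or 3 brought its adjusted p to between 0.0819 and 0.187. Fos, chosen after its values were seen, stood at 1946, 491 and 611 in fl/fl against 1868, 718 and 6138 in KO (limma, adjusted p = 0.446), with KO replicate 3 again the highest. That library also had the highest neutrophil marker sum, 985900 scaled counts, whose part in Fos, Phlda1 and Fosl1 was not tested. The result for Egr1 was known when the lists were drawn up and adds no independent evidence.

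The other 8 lists had 0 genes past the limma threshold and 0 by edgeR. The 16 kinases and scaffolds of the cascade had a median log2 of 0.0059 and 0 genes at an unadjusted p below 0.05 or called by DESeq2. Iqgap1, a scaffold of RAF, MEK and ERK, had the smallest p (log2 0.58; limma, adjusted p = 0.292). Of 21 tested receptors 12 had fold changes above 0, with a median of 0.043. At an unadjusted p below 0.05 there were 4 receptors, all with the lower level in KO, against 13.6% of all genes lower. DESeq2 called 1 of the 21, also lower, against 4.36% of all genes.

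Among the 20 exchange factors and adaptors of RAS the median was 0.18. At an unadjusted p below 0.05 there were 4 genes, each with the higher level in KO, against 4.58% of all genes. DESeq2 called 3 higher, against 2.59% of all genes. Rasgrp1, a RAS exchange factor of lymphoid cells, was at 0 in each fl/fl library and at 15.4, 22.5 and 91.0 in KO replicates 1 to 3 (limma, adjusted p = 0.0592). Of the 15 tested inhibitors of RAS and RAF 2 were higher and 1 lower at an unadjusted p below 0.05. The shares of all genes were 4.58% and 13.6%. The median log2 of these inhibitors was 0.26 and DESeq2 called 0. Rasa4, a RAS GTPase-activating protein, had the smallest p (log2 -0.77; limma, adjusted p = 0.118), and its exons overlap those of Gm15701 on the other strand and of Mir7035. Capicua and its partners (4 genes) had a median of 0.039, 0 genes at an unadjusted p below 0.05 and 0 called by DESeq2. Their smallest p was that of Atxn1, a partner of capicua (log2 -0.18; limma, adjusted p = 0.597), which overlaps Gmpr on the other strand. The gene for capicua itself, Cic, stood at 1254, 1474 and 412 in fl/fl against 995, 1187 and 1820.3 in KO, with fl/fl replicate 3 the lowest library. Cic, Kit, Spred3 and Spry3 were picked outside the rule for named genes, with their values seen.

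Of the 8 ERK effector kinases 1 was lower at an unadjusted p below 0.05, against 13.6% of all genes. It was Mknk1, a kinase of the translation factor eIF4E, with a log2 of -0.38 (limma, adjusted p = 0.193). The median of these kinases was 0.18 and DESeq2 called 0. Exons of Gm29434 on the other strand overlap those of Mknk1. The 7 tested members among the other MAP kinase phosphatases had a median of 0.36. At an unadjusted p below 0.05 there was 1, against 4.58% of all genes higher. DESeq2 also called 1, against 2.59% higher, in both cases Ptpn7. Ptpn7, a tyrosine phosphatase of ERK in blood cells, stood at 13913, 14106 and 12233 in fl/fl against 19056, 18766 and 18208 in KO (log2 0.48; limma, adjusted p = 0.0866), with the groups apart. Without fl/fl replicate 3 its adjusted p (limma) was 0.0440, and without each of the other libraries it was 0.162 to 0.325. Of the closest relatives outside the 10 genes, the PEA3 factor Etv1 stood at 48.6, 12 and 47.7 in fl/fl against 41.4, 43.8 and 43.7 in KO, and Spred3 at 168 ± 42.5 and 169 ± 16.4 (SD, n = 3 each). Neither had an unadjusted p below 0.05 or a DESeq2 call, and Spry3, at 0 in fl/fl and at most 9.45 in KO, was below the filter.

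**Figure D4:**
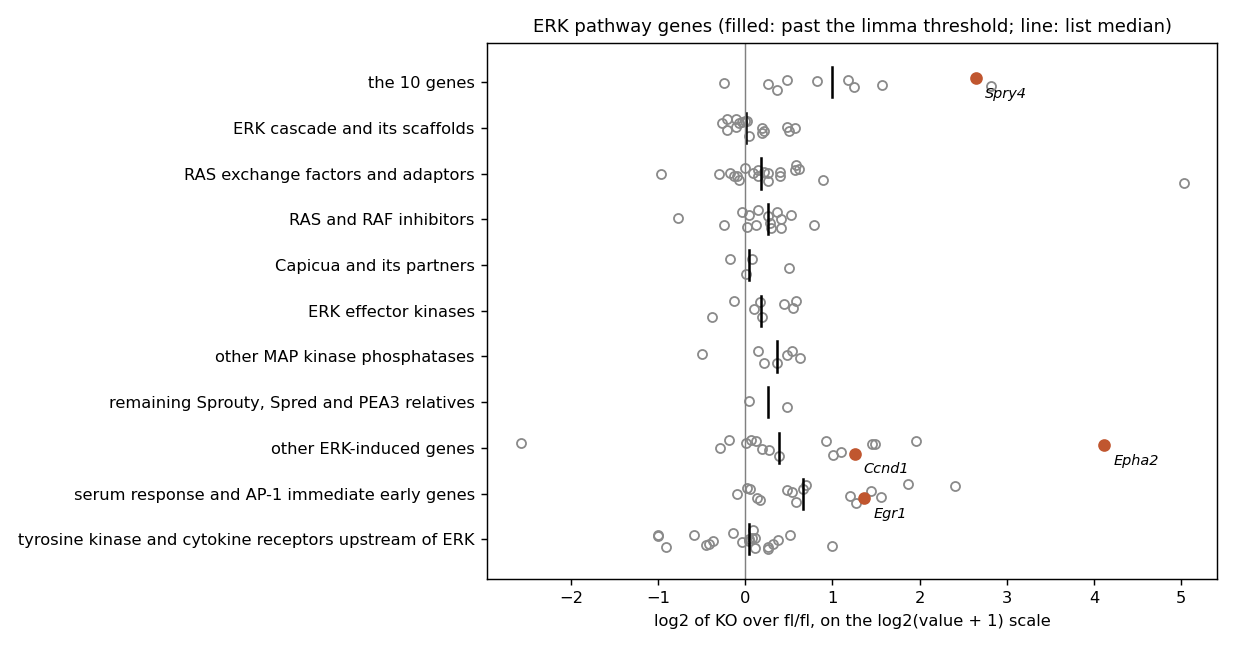
Log2 fold change of KO over fl/fl for the 10 genes and each tested gene of the 10 pathway lists, with filled orange points past the limma threshold over all genes (for Spry4 a description only) and a black line at each median. Epha2, Ccnd1, Egr1 and Spry4 are the filled points, the cascade and receptor lists are centred near 0, and the rightmost point among the exchange factors is Rasgrp1, whose fold change depends on the added 1 because its fl/fl values are 0.

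The 5 genes closest to the mean profile of the 10 were taken from the other 14103 genes tested, by the root mean square difference of centred log2 values over the 6 libraries. They were Palld, an actin-binding protein, at 0.093, Adat3, a subunit of a tRNA deaminase, at 0.12, Hdac9, a histone deacetylase, at 0.12, Kcnh2, a potassium channel, at 0.12, and A930004D18Rik at 0.12. The mean profile was -0.26, -0.51 and -0.90 in fl/fl replicates 1 to 3 and 0.41, 0.62 and 0.63 in KO replicates 1 to 3, in log2 units around its own mean. Reads of Adat3 cannot be told apart from those of Gm49322, which covers 1516 bases of its exons on the same strand, or of Scamp4.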

How the data were processed

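RNA-seq of 6 libraries (3 Prmt5 fl/fl, 3 Prmt5 KO) was used. Per the labels' protocols, libraries were made with SMART-Seq v4 and Nextera XT, which keep no strand. Per the submitters' processing notes, STAR and featureCounts were used with build mm10; their versions and gene models are not stated there. In the deposited table the column of fl/fl replicate 2 holds whole read counts. The other 5 columns hold a deposited signal, read counts scaled by the authors to its total of 44704636. The deposited gene length is another column. Dividing each scaled column by what 1 read is worth gave whole reads for 100% of values (tolerance 1e-06).

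Testing covered genes whose mean reached 10 scaled counts (14113 of 24110, of which 6234 were at 0 in every library). Differences were fitted with limma 3.58.1 (R 4.3.3) on log2(value + 1), without a block and with 4 residual degrees of freedom, and p-values were adjusted by Benjamini-Hochberg over all genes tested, at a threshold of 0.05. The recovered reads were tested with edgeR 4.0.16 and DESeq2 1.42.0 as alternatives. Each library is a separate pool of 2 mice. The fit was tested on simulated data. The 10 genes and the pathway and marker lists were chosen with earlier results of these data known. Named genes were the 10, Prmt5, up to 4 called genes of each list by smallest p or else the 1 with the smallest p, and the 5 nearest in profile; others are marked where named, and 1 gene of the receptor list is not reported here. Groups are called apart when their libraries do not overlap. Figures used Python 3.11.15 and matplotlib 3.10.9. Other scalings, other pseudocounts, no filter and each library left out were the remaining alternatives.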

Additional observations from a re-analysis of the deposited data

How the results depend on the processing

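The 10 genes kept the sign of their fold change in all 17 alternatives, and Spry4 stayed past the adjusted threshold in 11 of them, edgeR and DESeq2 included. Over all genes, the main 39 higher and 64 lower became 365 and 616 with DESeq2, and the lower count was 22 with median-of-ratios factors, 32 with TMM, 26 with quantile normalization, 38 with no filter and 26 with edgeR. Without each library in turn the counts ran from 1 to 121 higher and from 2 to 257 lower, the most without fl/fl replicate 3. Among the 10 genes the 1 higher became 6 with DESeq2, and 0 to 5 without each library. Among the pathway list genes the 3 higher became 11 with DESeq2 and 0 to 5 without each library, and the 0 lower became 1 with DESeq2 and 0 to 1 without each library. Without fl/fl replicate 2, the log2 fold change of Etv1 turned from 0.48 to -0.16 (0.81 without fl/fl replicate 1); the cause was not tested. With the replicate number as a block, which leaves 2 residual degrees of freedom, 1 gene was called higher and 0 lower over all genes, 0 of the 10 and 0 of the list genes, while at an unadjusted p below 0.05 (limma) 6 of the 10 were higher, 14 list genes were higher and 6 lower, and 3.57% of all genes were higher and 10.5% lower. The adjusted p in this fit (limma) was 0.103 for Epha2 and 0.197 for Ccnd1 and Egr1. The pairing by number has no stated meaning in the labels, though littermates were matched across genotypes. Deviations of libraries with the same number correlated at -0.14, 0.0675 and -0.256. With 3 libraries per genotype these values cannot settle whether the numbers pair the libraries. The main fit left the libraries unpaired. Low read numbers limit Etv4, Spry4 and Spry2.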
